A study of Mus musculus with 10 samples.

Results

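The levels of 7 genes, Stra8, Meioc, Ythdc2, Rec8, Smc1b, Stag3 and Rad21l, were followed in stem cells, germ cell-like cells made from them and primordial germ cells (PGCs) of the mouse. They were chosen by symbol, for their known part in the entry into meiosis and in meiotic cohesin, and are 7 of the 36066 genes in the expression table. Meiosis begins when a germ cell stops dividing by mitosis, replicates its DNA a last time and builds chromosome axes on which homologous chromosomes pair. In the fetal ovary this step follows retinoic acid and BMP signals, which switch on Stra8, a transcription factor of meiotic entry. Meioc and Ythdc2 encode partner proteins that bind RNA and help to end the mitotic program. Cohesin is a ring of 2 SMC proteins closed by a kleisin and bound by a STAG protein. Germ cells exchange some of its subunits for meiotic forms, with Smc1b in the place of Smc1a, Stag3 in the place of Stag1 or Stag2, and Rec8 or Rad21l in the place of the kleisin Rad21.

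RNA of 10 libraries was sequenced, 2 replicates in each of 5 groups, all labelled as strain C57BL6. ESCs are a female embryonic stem cell line from fertilized embryos, and pESCs are a parthenogenetic line from oocytes that were activated with strontium and so carry maternal chromosomes alone. ESC-PGCLCs and pESC-PGCLCs are PGC-like cells from the respective line, which per the labels were held for 2 days as epiblast-like cells and then for 4 days with BMP4 (500 ng/ml), SCF (100 ng/ml), EGF (50 ng/ml) and LIF (1000 IU), and in the study's methods were sorted for SSEA1 and CD61. PGCs came from embryos, and their labels name no embryonic day. The study's methods describe PGCs of female embryos at 2 embryonic stages, and which stage these libraries came from was not settled. In those methods PGCs were sorted by flow cytometry for SSEA1 and CD61 or with magnetic beads for SSEA1. Which of the 2 ways was used for these libraries was not settled either. The study calls its 2 replicates of each group biological, but the labels do not say which cultures or embryos they came from, so p-values measure the spread between these libraries. Levels are in TPM, which corrects reads for the length of the gene and for the depth of the library, so that genes can be compared with each other. The libraries held 6779837 to 18572900 reads on genes, with the fewest in both ESC-PGCLC libraries.

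The labelled cell types were checked against marker genes. The summed level of 10 germ cell markers was 408 to 434 TPM in ESCs and 754 to 932 TPM in pESCs, and lay between 5660 and 8000 TPM in the 6 germ cell libraries. Most of it was Dppa3, with means of 366 TPM in ESCs, 791 in pESCs, 5654 in ESC-PGCLCs, 4743 in pESC-PGCLCs and 3667 in PGCs. Prdm14 did not follow the sum, with means of 17.6, 12.95, 17.4, 14.6 and 20.8 TPM in the same order. The sum of 8 pluripotency markers was 639 to 1042 TPM in the stem cells and 136 to 222 TPM in the germ cell libraries. Sox2 did not follow this sum, with means of 38.7 TPM in ESCs, 49.1 in pESCs, 104 in ESC-PGCLCs, 26.8 in pESC-PGCLCs and 79.2 in PGCs. Pou5f1 fell, with means of 21.2, 7.64, 0.187, 2.93 and 2.38 TPM in the same order. Ddx4, a marker of germ cells that have reached the gonad, was at 2.63 and 3.35 TPM in ESCs, 1.51 and 3.10 TPM in pESCs, 260 and 281 TPM in ESC-PGCLCs, 186 and 191 TPM in pESC-PGCLCs and 189 and 303 TPM in PGCs. By Ddx4 and by the members below, the PGCLC libraries were thus near the PGC libraries, which goes against the early germ cell stage that 4 days of induction without gonadal cells is known to give, and they are called PGCLCs here by their label alone. The cause was not tested. Markers of other cell types were also present. The sum of 13 gonadal somatic markers was 7.76 to 10.5 TPM in the stem cells, 48.2 to 56.0 TPM in ESC-PGCLCs, 97.2 to 104 TPM in pESC-PGCLCs and 186 to 197 TPM in PGCs. Of the 13, 3 to 6 were at 0 in a stem cell library and 0 in any germ cell library. Foxl2, of ovarian support cells, was at 0.0 to 0.0755 TPM in the stem cell and ESC-PGCLC libraries, at 0.392 and 0.397 TPM in pESC-PGCLCs and at 0.782 and 1.64 TPM in PGCs. Other gonadal markers were clearly above the stem cells in ESC-PGCLCs too, with Kitl at 19.7 and 20.3 TPM against at most 0.275 TPM, Wt1 at 7.16 and 8.05 TPM against at most 0.0931 TPM, and Lhx9 at 6.20 and 7.48 TPM against at most 0.00886 TPM. Amhr2 went the other way, with 3.57 to 4.71 TPM in the stem cells against 1.26 and 2.33 TPM in ESC-PGCLCs. The sum of 10 blood markers, most of it haemoglobin, was 0.115 to 4.59 TPM in the stem cells, 492 to 562 TPM in ESC-PGCLCs, 2902 to 3439 TPM in pESC-PGCLCs and 1989 to 2200 TPM in PGCs, while Ptprc, which marks white blood cells, was at most 0.103 TPM in any library. Both PGCLC libraries of each line therefore hold these markers, and no library could be left out to remove them. In such bulk RNA, fewer cells of a type and less RNA per cell cannot be told apart.

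The promoters of 6 of the 7 genes are shown because the members rose together, and because the E2F letters GCGGGA are read by E2F6, a repressor of germline genes outside the germ line. Each line gives 100 bases in the direction of the gene (RefSeq, GRCm38.p6). The lines run from -70 to 30 around the RefSeq start, except that of Meioc. The Meioc line runs from -250 to -151, was placed upstream to show its E2F letters and does not hold the start. Capitals mark GCGGGA or its reverse complement in the first 4, and CG in Stra8. Rad21l holds neither in this stretch and has no capitals.
Meioc (chr11:102665335-102665434, plus strand): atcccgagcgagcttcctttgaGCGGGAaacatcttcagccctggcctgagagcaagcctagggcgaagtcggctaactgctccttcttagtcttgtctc
Rec8 (chr14:55618096-55618195, plus strand): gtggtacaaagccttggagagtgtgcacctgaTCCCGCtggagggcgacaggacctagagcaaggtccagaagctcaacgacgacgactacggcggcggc
Smc1b (chr15:85131928-85132027, minus strand): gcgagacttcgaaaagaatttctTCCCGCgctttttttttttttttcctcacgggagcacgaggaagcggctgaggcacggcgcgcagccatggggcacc
Stag3 (chr5:138280439-138280538, plus strand): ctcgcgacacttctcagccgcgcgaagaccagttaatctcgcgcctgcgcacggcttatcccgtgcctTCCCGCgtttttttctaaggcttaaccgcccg
Stra8 (chr6:34920878-34920977, plus strand): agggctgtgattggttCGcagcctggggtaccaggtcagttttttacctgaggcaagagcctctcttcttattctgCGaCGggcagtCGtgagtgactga
Rad21l (chr2:151668504-151668603, minus strand): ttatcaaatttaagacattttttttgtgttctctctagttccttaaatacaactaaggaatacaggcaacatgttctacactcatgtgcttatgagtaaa

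Over the 300 bases from 250 before to 50 after the RefSeq start, the E2F letters lay in 4 of the 6 promoters on either strand, and in 20.0% of 27025 promoters of the same length. Their first base was at -228 in Meioc, -38 in Rec8, -47 in Smc1b and -2 in Stag3. The E-box CACGTG, the letters of many basic helix-loop-helix factors, lay in Stag3 at -170 and in 7.24% of all promoters. The STRA8 motif CNCCTCAG, searched on both strands with N for any base, lay in none of the 6 and in 7.97% of all promoters. The retinoic acid element DR5 with both copies exact lay in none of the 6 and in 0.0074% of all promoters. The same 300 bases held 28 CpG in Meioc, 29 in Smc1b, 30 in Stag3, 18 in Rec8, 10 in Stra8 and 2 in Rad21l, against a median of 7 for all 27025 promoters and of 20 for the 10347 of genes with at least 1 TPM in 2 libraries. The RefSeq start differs from the first base of the GENCODE gene by 1869 nt in Meioc, 785 nt in Stra8, 269 nt in Stag3 and 129 nt in Rec8, so these windows describe 1 start of each gene. GCGGGA itself holds a CpG, and the 4 promoters with it held 18 to 30. Its rate was not taken among promoters of like CpG content, so no enrichment can be read from the 20.0%. Such matches are letters in a window and not sites that were measured.

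The first question was whether the genes of meiotic entry were on in cells that had been induced to the germ cell fate. All 3 genes were low in both stem cell lines and far higher in both kinds of PGCLC and in PGCs. Stra8 (chromosome 6, 34920163 to 34939344 in GRCm38, plus strand, 10 exons) was at 2.53 and 3.59 TPM in ESCs, 5.49 and 5.76 TPM in pESCs, 192 and 212 TPM in ESC-PGCLCs, 410 and 359 TPM in pESC-PGCLCs and 333 and 343 TPM in PGCs. No germ cell library overlapped a stem cell library. In the germ cell libraries Stra8 ranked between 375 and 622 from the top of all 36066 genes, and in the stem cells between 6086 and 9638. Meioc (chromosome 11, 102663716 to 102682237, plus strand) was at 1.11 and 1.02 TPM in ESCs, 0.740 and 1.60 TPM in pESCs, 72.6 and 77.4 TPM in ESC-PGCLCs, 57.2 and 65.2 TPM in pESC-PGCLCs and 91.8 and 91.4 TPM in PGCs. The 3 germ cell groups followed each other without overlap, with PGCs highest and pESC-PGCLCs lowest. Ythdc2, an RNA helicase that reads N6-methyladenosine (chromosome 18, 44827746 to 44889724, plus strand), was at 2.15 and 1.60 TPM in ESCs, 1.42 and 2.55 TPM in pESCs, 30.1 and 35.3 TPM in ESC-PGCLCs, 19.2 and 17.1 TPM in pESC-PGCLCs and 37.3 and 35.4 TPM in PGCs. Its stem cell level was measurable, and its rise was the smallest of the 3.

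The meiotic cohesin subunits were also low in stem cells, and differed more among themselves in the germ cell groups. Smc1b, the meiotic SMC1 subunit (chromosome 15, 85064689 to 85131964, minus strand), was at 0.644 and 0.790 TPM in ESCs, 0.984 and 1.94 TPM in pESCs, 203 and 230 TPM in ESC-PGCLCs, 170 and 163 TPM in pESC-PGCLCs and 129 and 150 TPM in PGCs. Its highest group was ESC-PGCLCs, whose libraries lay above all others. Stag3, the meiotic STAG subunit (chromosome 5, 138280240 to 138312393, plus strand), was at 0.890 and 1.10 TPM in ESCs, 0.675 and 0.845 TPM in pESCs, 35.8 and 40.5 TPM in ESC-PGCLCs, 28.9 and 26.9 TPM in pESC-PGCLCs and 35.3 and 61.4 TPM in PGCs. The 2 PGC libraries lay on either side of both ESC-PGCLC libraries. Rec8, the kleisin that holds sister chromatids together until the meiotic divisions (chromosome 14, 55618037 to 55625395, plus strand), was at 1.37 and 1.32 TPM in ESCs, 1.05 and 1.61 TPM in pESCs, 6.73 and 6.70 TPM in ESC-PGCLCs, 21.0 and 20.9 TPM in pESC-PGCLCs and 37.1 and 26.3 TPM in PGCs. Its 3 germ cell groups did not overlap, and their order was unlike that of the other members. Rad21l, a kleisin of early meiotic prophase (chromosome 2, 151645404 to 151668533, minus strand), was close to the limit of detection throughout, with 1 and 0 reads in ESCs, 0 and 0 in pESCs, 5 and 3 in ESC-PGCLCs (0.634 and 0.444 TPM), 11 and 34 in pESC-PGCLCs (0.779 and 2.18 TPM) and 1 and 8 in PGCs (0.0945 and 0.534 TPM). None of the 7 genes shares a 100-base stretch of its transcripts with another annotated gene, and no exon of theirs overlaps an exon of another gene.

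**Figure D1:**
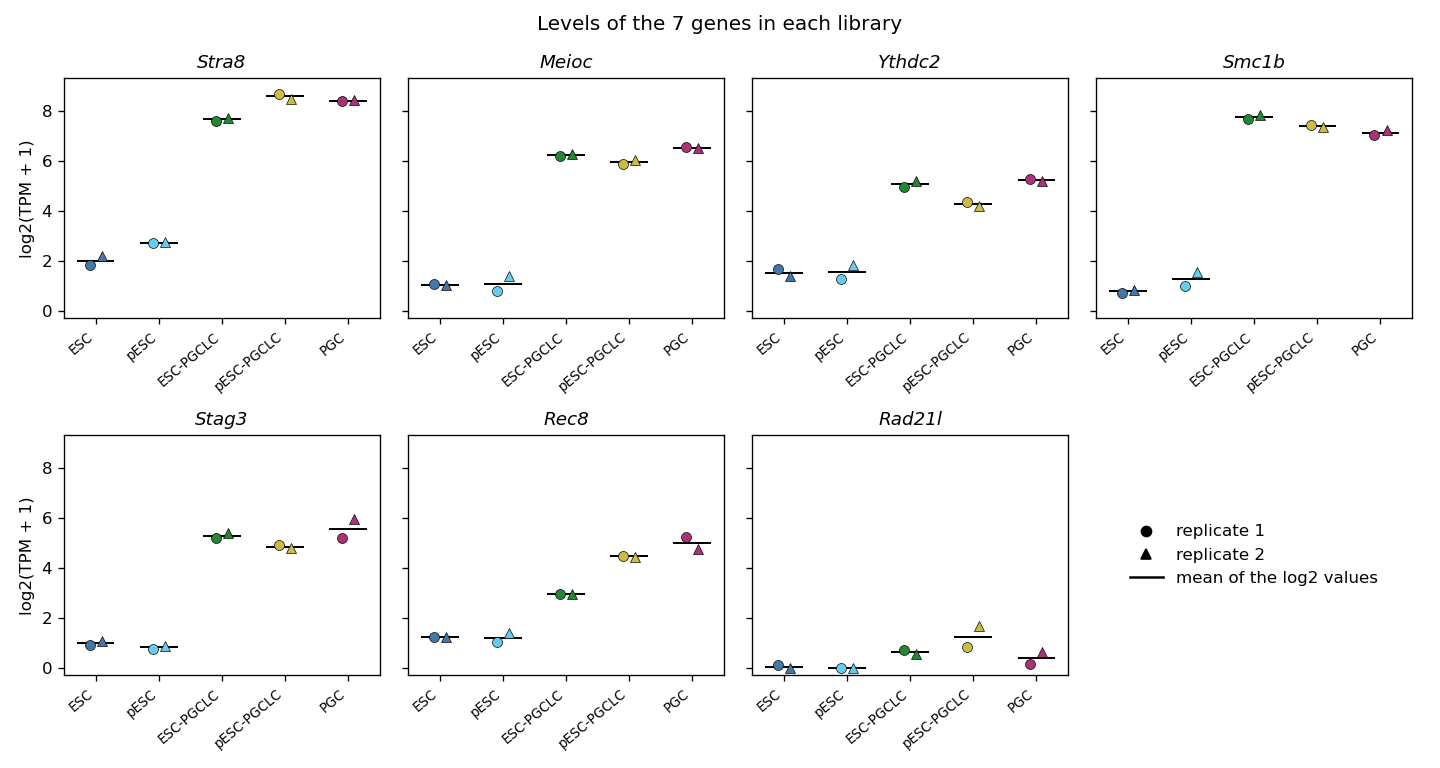
Level of each of the 7 genes as log2(TPM + 1), in 1 panel per gene with the 5 groups along the horizontal axis, circles for replicate 1, triangles for replicate 2 and a bar for the mean of the log2 values. Stra8, Meioc, Ythdc2, Smc1b and Stag3 form a step between the stem cells and all germ cell groups, Rec8 climbs from ESC-PGCLCs (6.72 TPM) through pESC-PGCLCs (21.0 TPM) to PGCs (31.7 TPM), and Rad21l stays at or below 2.18 TPM.

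Each kind of PGCLC was compared with the stem cells it was made from, with limma on log2(TPM + 1), and calls needed 2-fold or more on that scale besides an adjusted p below 0.05. Of the 7 genes 6 were called higher in ESC-PGCLCs than in ESCs, where 15.3% of the 27259 genes tested were called higher and 14.5% lower. Smc1b rose by 6.99 (SE 0.198, adjusted p = 1.11e-06), Stra8 by 5.65, Meioc by 5.20, Stag3 by 4.29, Ythdc2 by 3.55 and Rec8 by 1.72 on the log2 scale. In mean TPM the ratios ran up to 302 for Smc1b, with 70.6 for Meioc, 38.3 for Stag3 and 17.4 for Ythdc2. Rad21l, at 8 reads in both ESC-PGCLC libraries and 1 in both ESC libraries, differed by 0.57 and was not called (adjusted p = 0.122), with a ratio of reads per depth of 19.1 (exact 95% interval 2.56 to 849, for counting error alone). In pESC-PGCLCs 7 of 7 were called higher than in pESCs, where 20.8% of all genes were and 6.8% were lower. Smc1b rose by 6.12, Stra8 by 5.86, Meioc by 4.87, Stag3 by 4.04, Rec8 by 3.25, Ythdc2 by 2.71 and Rad21l by 1.25 (adjusted p = 0.00624). Rad21l had no read in either pESC library, so its mean TPM was at least 7.14-fold higher in pESC-PGCLCs, against a floor of 3 reads per library. Without pESC-PGCLC replicate 2, which holds 34 of its 45 reads, its difference was 0.83 and was not called. In PGCs, 6 of 7 were called higher than the mean of both stem cell lines, where 25.3% of all genes were and 8.06% were lower, with Smc1b at 6.10, Stra8 at 6.04, Meioc at 5.47, Stag3 at 4.67, Rec8 at 3.79 and Ythdc2 at 3.69. Rad21l differed by 0.35 there (adjusted p = 0.237). With 2 libraries against 2, an exact permutation test of 1 gene cannot go below p = 0.333, so these calls rest on limma's estimate of the spread over all genes.

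**Figure D2:**
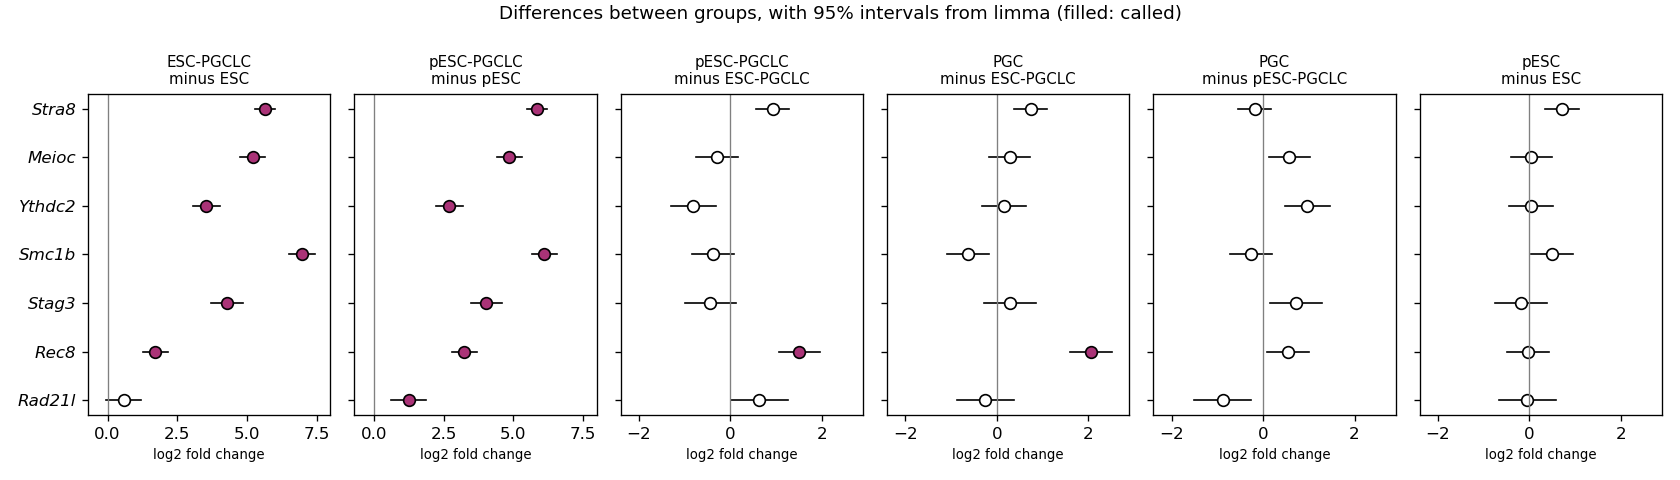
Log2 differences of the 7 genes in 6 comparisons, each with its 95% interval from limma, filled where the gene was called and open where it was not; the first 2 panels have a wider horizontal scale. Between stem cells and PGCLCs 6 and 7 of the genes are called, while between the germ cell groups Rec8 alone is, higher in pESC-PGCLCs (1.51) and in PGCs (2.06) than in ESC-PGCLCs.

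Whether PGCLCs of parthenogenetic and of fertilized origin differed in these genes was tested between the 2 PGCLC groups. Of the 7 genes 1 was called, where 13.4% of all genes were, 10.3% being higher in pESC-PGCLCs. Rec8 was 1.51 higher in pESC-PGCLCs (SE 0.198, adjusted p = 0.00144), or 3.12-fold in mean TPM, with 526 and 577 reads against 94 and 80. It was called in this comparison under every alternative and without any 1 library. Stra8 was higher in both pESC-PGCLC libraries by 0.93 (95% interval 0.56 to 1.29, adjusted p = 0.00472) and Ythdc2 was lower in both by 0.81 (difference -0.81, interval -1.30 to -0.32, adjusted p = 0.0275), each short of 2-fold. Ythdc2 was called lower under quantile normalization (-1.26) and median centring (-1.22), and Stra8 was called without pESC-PGCLC replicate 2 (1.02). The differences of Smc1b (-0.37, interval -0.83 to 0.08), Stag3 (-0.44, interval -1.0 to 0.13) and Meioc (-0.29, interval -0.74 to 0.16) missed the threshold, which does not show that the groups are alike. Rad21l differed by 0.63 (interval 0.01 to 1.25, adjusted p = 0.138), and its ratio of reads per depth was 2.77 (exact 95% interval 1.29 to 6.80). That ratio rests on pESC-PGCLC replicate 2, which holds 34 of the 45 reads, and with replicate 1 alone it was 1.43 (interval 0.522 to 4.08).

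The difference between the 2 rises, that from pESCs to pESC-PGCLCs less that from ESCs to ESC-PGCLCs, was tested as an interaction. Rec8 was the 1 member called, where 19.1% of all genes were and 15.5% had a larger rise, with a rise larger by 1.53 (SE 0.280, 95% interval 0.88 to 2.18, adjusted p = 0.00669). Its size fell to 0.79 with libraries centred on their median gene (adjusted p = 0.0259), which is under 2-fold, and with voom on reads it was 1.45 (adjusted p = 0.0511), so that it was called under neither. The interactions of Smc1b (-0.87, adjusted p = 0.0611) and Ythdc2 (-0.84, adjusted p = 0.0807) were negative and not called, but were called under quantile normalization, median centring and voom and without pESC replicate 1. Those of Stra8 (0.21), Meioc (-0.34, called under median centring at -1.08), Stag3 (-0.26) and Rad21l (0.68) were not called, and that of Stra8 turned negative under quantile normalization, median centring and voom.

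Rec8 was set beside the markers that differ between the same libraries. Its order, with ESC-PGCLCs below pESC-PGCLCs and these below PGCs, is also the order of the summed level of the 13 gonadal somatic markers, though not of the means of Sox9 and Star among them. Of the 13, 5 were called higher in pESC-PGCLCs than in ESC-PGCLCs (10.3% of all genes), 10 higher in PGCs than in ESC-PGCLCs (12% of all genes) and 0 lower in either. Amhr2, a receptor of gonadal somatic cells, had the largest of these changes, 1.87 and 2.96 respectively, though its level in ESC-PGCLCs lay below that in the stem cells. Of the 10 blood markers 7 were called higher in each of the 2 comparisons, and their sum was highest in pESC-PGCLCs. Such counts depend on the scaling. Under median centring the share of all calls that were higher fell from 77.0% to 43.6% between the PGCLC groups. For PGCs against ESC-PGCLCs it fell from 86.4% to 26.2%. The sum of 11 genes of retinoic acid supply and response was 34.5 to 41.1 TPM in ESC-PGCLCs, 102 to 119 TPM in pESC-PGCLCs and 85.4 to 122 TPM in PGCs. The part of other cell types in the level of Rec8 was not tested.

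**Figure D3:**
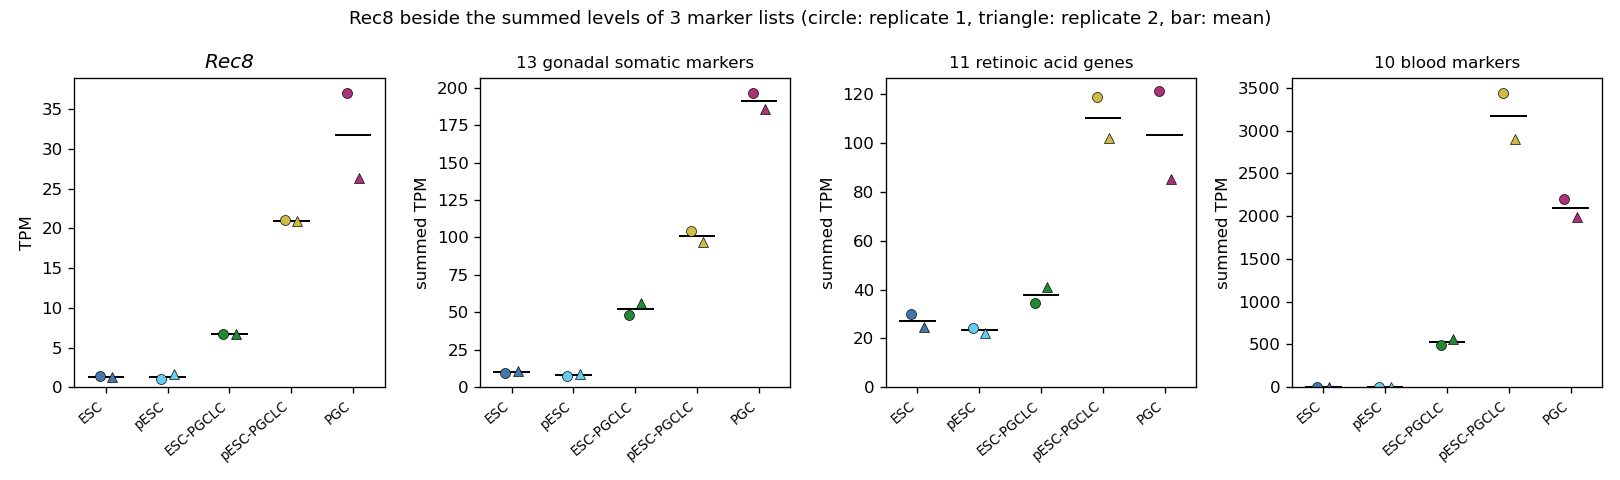
Level of Rec8 (TPM) beside the summed TPM of the gonadal somatic, retinoic acid and blood lists in each library, on linear axes from 0, with circles for replicate 1, triangles for replicate 2 and bars for the group mean. Rec8 and the gonadal somatic sum climb through ESC-PGCLCs, pESC-PGCLCs and PGCs, while the blood sum is highest in pESC-PGCLCs (2902 to 3439 TPM) and the retinoic acid sums of pESC-PGCLCs and PGCs overlap.

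PGCs were compared with each kind of PGCLC. The comparison with ESC-PGCLCs shares those libraries with the comparison of the 2 PGCLC groups, and its values are given side by side without being counted as further support. Against ESC-PGCLCs 1 of 7 was called, where 13.8% of all genes were, 12% being higher in PGCs. Rec8 was 2.06 higher in PGCs (SE 0.198, adjusted p = 0.00112), or 4.72-fold in mean TPM. Stra8 was 0.74 higher (adjusted p = 0.0112) and Smc1b was lower (-0.64, adjusted p = 0.0436) in both PGC libraries, each under 2-fold, and Smc1b was called lower under median centring (-1.24). Meioc (0.29), Ythdc2 (0.16), Stag3 (0.29) and Rad21l (-0.25) did not pass the test, and the first 2 of these and Stag3 changed sign with the scaling. Against pESC-PGCLCs 0 of 7 were called, where 3.67% of all genes were. Voom on reads also called 0. Ythdc2 came closest, 0.97 higher in PGCs (95% interval 0.48 to 1.45, adjusted p = 0.0368), and 5 members, Ythdc2, Meioc, Stag3, Rec8 and Rad21l, had an unadjusted p under 0.05. Rec8 differed by 0.55 (interval 0.10 to 1.01, adjusted p = 0.112), with 37.1 and 26.3 TPM in PGCs against 21.0 and 20.9 TPM. Stra8 had the smallest difference (-0.18, interval -0.55 to 0.18).

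Between the 2 stem cell lines 0 of 7 were called, where 0.781% of all genes were. Stra8 was 0.72 higher in pESCs (interval 0.35 to 1.08, adjusted p = 0.0673), with 87 and 90 reads against 42 and 77 in ESCs, and Smc1b was 0.49 higher (interval 0.03 to 0.95, adjusted p = 0.244). These were the 2 members with an unadjusted p under 0.05, voom on reads called 0, and Stra8 was called under median centring (1.05, adjusted p = 0.0393). The other 5 differed by 0.18 or less in size.

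The exchange of cohesin subunits was described by the share of the meiotic form in the TPM of each family. Smc1b made up 4.92% ± 0.213 (SD, n = 2, as for all shares here) of Smc1a and Smc1b together in ESCs and 12.2% ± 1.23 in pESCs, and 92.5% ± 0.779 in ESC-PGCLCs, 87.2% ± 0.823 in pESC-PGCLCs and 85.9% ± 0.632 in PGCs. Stag3 made up 9.31% ± 0.855 of the 3 STAG genes in ESCs, 8.24% ± 0.862 in pESCs, 58.3% ± 1.59 in ESC-PGCLCs, 50.3% ± 3.64 in pESC-PGCLCs and 52.0% ± 9.48 in PGCs. The kleisins stood apart. Rec8 and Rad21l together made up 3.15% ± 0.507 of the kleisins in ESCs, 3.42% ± 0.350 in pESCs, 3.68% ± 0.344 in ESC-PGCLCs, 15.5% ± 0.869 in pESC-PGCLCs and 12.1% ± 2.55 in PGCs. In ESC-PGCLCs the SMC1 and STAG shares were thus above those of every stem cell library, while the kleisin share overlapped that of both stem cell lines.

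**Figure D4:**
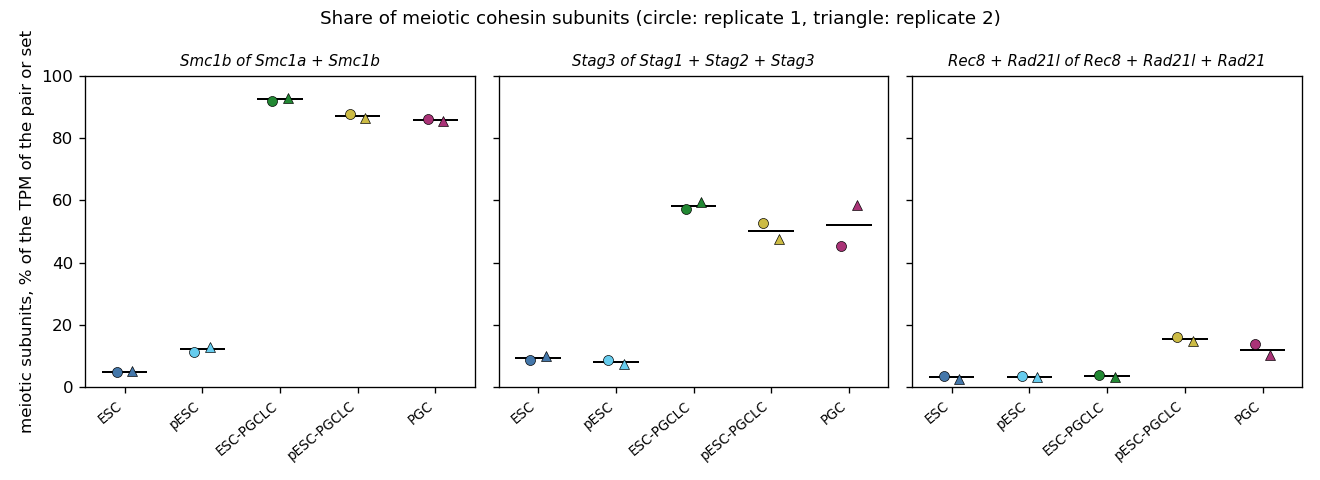
Share of the meiotic subunit in the summed TPM of the SMC1 pair, the 3 STAG genes and the 3 kleisins, in percent on axes from 0 to 100, with circles for replicate 1, triangles for replicate 2 and bars for the group mean. The SMC1 share is 85.4% to 93.0% in every germ cell library, the STAG share is 45.3% to 59.4%, and the kleisin share is at most 3.92% in ESC-PGCLCs and 10.2% to 16.1% in pESC-PGCLCs and PGCs.

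The mitotic subunits were not switched off in the germ cells. Rad21, the mitotic kleisin, was at 42.7 ± 4.59 TPM (mean ± SD, n = 2) in ESCs, 38.3 ± 15.3 in pESCs, 191 ± 14.4 in ESC-PGCLCs, 123 ± 12.9 in pESC-PGCLCs and 233 ± 2.89 in PGCs. It was called higher in ESC-PGCLCs (2.14) and in pESC-PGCLCs (1.71) than in their stem cells. Smc3, the SMC subunit common to mitotic and meiotic rings, rose by 1.93 and 2.06, Stag1 by 1.35 and 1.48, and Stag2 by 1.29 and 1.53. Smc1a differed by 0.33 in ESC-PGCLCs (adjusted p = 0.284) and was called higher in pESC-PGCLCs (adjusted p = 0.00335). In all 4 of 5 mitotic subunits were called higher in ESC-PGCLCs (15.3% of all genes) and 5 of 5 in pESC-PGCLCs (20.8%). Their median change was 1.35 and 1.53, against 0.05 and 0.22 over all genes tested. The count in pESC-PGCLCs depended on the scaling and was 2 of 5 under quantile normalization and 1 of 5 under median centring, with all 5 differences still above 0. Between the 2 PGCLC groups 0 of the 5 were called by limma, where 13.4% of all genes were. Rad21, with the largest difference (-0.63, adjusted p = 0.108), was the 1 with an unadjusted p under 0.05. Of 13 regulators of cohesin, 6 rose and 1 fell in ESC-PGCLCs, where 15.3% of all genes were called higher and 14.5% lower, so that the 1 that fell is below that background. Pds5b, which binds the closed ring, rose by 2.68, and Cdca5, which protects cohesin on replicated DNA in mitotic cells, fell by 2.07. In pESC-PGCLCs 6 of the 13 were called higher (20.8% of all genes), but 3 under quantile normalization and 2 under median centring.

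Partners of the entry genes were uneven. Dazl, a germ cell RNA-binding protein that licenses germ cells to answer meiotic signals, was at 13.2 and 13.6 TPM in ESCs, 12.1 and 18.7 TPM in pESCs, 1664 and 1821 TPM in ESC-PGCLCs, 1084 and 1115 TPM in pESC-PGCLCs and 1958 and 2095 TPM in PGCs. Rbm46, which acts with Meioc and Ythdc2, was at 0.0 to 0.304 TPM in the stem cells and at 78.9 to 89.8 TPM in all 6 germ cell libraries. Meiosin, the partner of STRA8 in transcription, listed as Gm4969, had 0 to 2 reads in the stem cells and 3 to 26 reads (0.134 to 0.589 TPM) in the germ cell libraries and was called in no comparison. Stra8 was thus at 192 TPM or more in libraries where the transcript of its partner was below 1 TPM. Of 11 partners, 5 were called higher in ESC-PGCLCs (15.3% of all genes), 4 in pESC-PGCLCs (20.8%) and 6 in PGCs (25.3%) than in stem cells, with medians of 0.58, 0.74 and 1.02 against 0.05, 0.22 and 0.28 over all genes tested, and the last count was 4 under both scalings. Zglp1, a factor of the oogenic fate downstream of BMP that is named here after its values were seen, was at 48.5 and 45.4 TPM in ESC-PGCLCs, 162 and 133 TPM in pESC-PGCLCs and 82.9 and 91.7 TPM in PGCs. It was the 1 partner of 11 called by limma between the PGCLC groups (1.62 higher in pESC-PGCLCs, adjusted p = 0.00293), where 13.4% of all genes were called.

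Genes of retinoic acid supply and response were examined because this signal acts on Stra8 and Rec8. Of 11, 1 was called higher and 1 lower in ESC-PGCLCs than in ESCs, where 15.3% and 14.5% of all genes were, and Rdh10, which makes retinaldehyde, rose by 1.61. In pESC-PGCLCs 5 were called higher than in pESCs (20.8% of all genes), and 4 were called higher than in ESC-PGCLCs (10.3%). Crabp2, which carries retinoic acid to the nucleus, rose most in both (3.03 and 1.96). The count of 5 was 3 under both scalings and that of 4 was 3.

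The machinery that acts on the cohesin axis rose with the members. Of 10 axis and synaptonemal genes 10 were called higher in ESC-PGCLCs (15.3% of all genes), in pESC-PGCLCs (20.8%) and in PGCs (25.3%) than in stem cells. Their medians were 4.05, 3.93 and 3.82, and 9 were called in pESC-PGCLCs under both scalings. Tex12, of the central element, rose by 7.47 in ESC-PGCLCs and by 6.52 in pESC-PGCLCs. Sycp3, of the axis itself, was at 1677 ± 36.3 TPM in ESC-PGCLCs and 776 ± 128 TPM in pESC-PGCLCs. It was lower in the latter by limma (-1.12, adjusted p = 0.0125), in the opposite direction to Rec8. In this comparison 13.4% of all genes were called, and the list was mixed. The means of Sycp1 (18.7 against 41.0 TPM) and Tex12 (289 against 486 TPM) were also lower in pESC-PGCLCs. Those of Syce1 (220 against 111 TPM) and Hormad2 (27.9 against 18.1 TPM) were higher, as for Rec8. Of 20 recombination genes 11 were called higher in ESC-PGCLCs (15.3% of all genes) and 13 each in pESC-PGCLCs (20.8%) and PGCs (25.3%) than in stem cells. Meiob, which binds single-stranded DNA at breaks, rose by 4.13 and 4.24, while Spo11, which makes the breaks, stayed between 2.6 and 4.9 TPM in the means of the germ cell groups. Majin, of the complex that ties telomeres to the nuclear envelope, was 1.75 higher in pESC-PGCLCs than in ESC-PGCLCs, where 10.3% of all genes were called higher. It is 1 gene of the 20 and does not describe the list.

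Readers and writers of N6-methyladenosine, the mark that Ythdc2 binds, changed less. Of 7, 4 were called higher in ESC-PGCLCs (15.3% of all genes) and 4 in pESC-PGCLCs (20.8%) than in their stem cells, with Ythdf1 at 1.61 and 1.66. The count in pESC-PGCLCs was 1 under quantile normalization and 0 under median centring. Of 16 genes whose products repress germline genes, 7 rose and 3 fell in ESC-PGCLCs, where 15.3% of all genes were called higher and 14.5% lower, so that the 3 that fell are near that background. Dnmt3b, a DNA methyltransferase, fell by 2.24, and Cbx3, a heterochromatin protein, rose by 1.77. In pESC-PGCLCs 7 rose and 2 fell (20.8% and 6.8% of all genes), among them Dnmt1, the maintenance methyltransferase (rose by 1.98), and Uhrf1, which brings it to replicated DNA (fell by 1.70). The 7 that rose were 5 under quantile normalization and 2 under median centring. Between the PGCLC groups 0 of the 16 were called by limma, where 13.4% of all genes were, with 3 at an unadjusted p under 0.05.

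The genes closest in pattern to each member were found by Pearson's r of log2(TPM + 1) over the 10 libraries, as a description without a test. The libraries fall into stem cells and germ cells and share depth within a library, so r is high for any gene with that step, and 1342 to 2111 of about 17693 genes had r above 0.95 with each of the 6 members other than Rad21l. Among the members, r was 0.956 to 0.994 between Stra8, Meioc, Ythdc2, Smc1b and Stag3, and 0.871 to 0.933 between Rec8 and these. Stra8 was closest to Gnb4 (0.997), Rgs10 (0.996) and Rhox13 (0.996), and Rhox13, a germ cell homeobox gene, was likewise highest in pESC-PGCLCs (20.7 ± 0.289 TPM). Gnb4 and Rgs10 were instead highest in PGCs (8.65 ± 0.705 and 22.9 ± 0.375 TPM). Meioc was closest to Brdt, Dazl and Rbm44 (each 0.999), Stag3 to Amot (0.999), Zmat1 and Tex14 (each 0.998), and Smc1b to Spa17, Ccdc172 (each 0.998) and Tceanc (0.997), where Brdt, Dazl, Rbm44, Tex14 and Spa17 are known from germ cells. Ythdc2 was closest to Wdr44, Edem3 (each 0.998) and Rbbp6 (0.997). Rec8 was closest to Aldh1a1 (0.997), Wnt4 (0.996) and Npr2 (0.996), and Wnt4 is on the list of gonadal somatic markers. Aldh1a1, which makes retinoic acid, was at 2.78 ± 0.0134 TPM in ESC-PGCLCs, 8.85 ± 0.112 TPM in pESC-PGCLCs and 16.1 ± 1.42 TPM in PGCs, and at most 0.0468 TPM in the stem cell means. Rad21l had no gene above 0.95 and was closest to 4930524J08Rik (0.946), Hpgd (0.935) and Gm6485 (0.934).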

How the data were processed

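The 10 libraries were measured by RNA-seq. Per the submitters' processing notes and the study's methods, the authors used HISAT2 with mm10, counted reads per gene and ran DESeq2 in R 3.4.2; the notes also list Bowtie2 and RSEM. The labels and the methods name different library preparations, and strand was not given in the sources used here. The authors deposited TPM for 36066 genes by symbol, which is not a count and was used without other normalization. The deposited table names no annotation, so TPM was multiplied by GENCODE M21 exon lengths (35859 genes matched), which gave whole reads within 0.02 for 94.6% to 94.9% of values above 0. These reads served for depth, for floors of 3 reads and for exact 95% intervals, which cover counting error alone.

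Values were analysed as log2(TPM + 1), so changes of low genes are understated. The 27259 genes with at least 0.1 TPM in 2 libraries, all 7 members included, were fitted with limma 3.58.1 in R 4.3.3, with a mean per group over all 10 libraries, trended empirical Bayes variances (5 residual and 2.81 prior degrees of freedom) and Benjamini-Hochberg adjustment over all genes tested, two-sided. The procedure was tested on simulated data. Fold changes are those of the log2 scale unless given as ratios of mean TPM.

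The members and the gene lists were chosen with earlier results of these data known. All members are named, as are the mitotic cohesin subunits, Meiosin, Dazl and Rbm46; from every other list the called gene with the largest change and at most 1 called in the other direction are named, and for each member the 3 genes closest in pattern. Spo11, Sycp1, Syce1, Hormad2, Foxl2, Kitl, Wt1, Lhx9, Ptprc, Ddx4, Sox2, Pou5f1, Dppa3 and Prdm14 fall outside this rule and were chosen after their values were seen. The same holds for the exceptions Sox9 and Star, the stem cell level of Amhr2 and the comment on Aldh1a1. Tried as alternatives were another pseudocount (0.1), a minimum of 1 TPM or none, the compared groups alone, quantile normalization, centring of libraries by the median of 9024 genes that reached 1 TPM throughout, a replicate block and leaving out each library; voom on the recovered reads was added after seeing the data. Promoters were RefSeq's (GRCm38.p6), and that of Ythdc2 was not analysed here. 1 gene of the retinoic acid list is counted but not reported by name. Lists lacked 1 gonadal and 1 retinoic acid gene in the table. Python 3.11.15, pandas 2.3.3, numpy 2.4.6, scipy 1.17.1 and matplotlib 3.10.9 were used.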

Additional observations from a re-analysis of the deposited data

Results flagged for a closer look

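The rise of Rec8 from stem cells to PGCLCs differed between the 2 origins by a test of the difference itself. It was larger by 1.53 on the log2 scale in the parthenogenetic line (SE 0.280, adjusted p = 0.00669, limma), with 1.05 and 1.61 TPM in pESCs and 21.0 and 20.9 TPM in pESC-PGCLCs against 1.37 and 1.32 TPM in ESCs and 6.73 and 6.70 TPM in ESC-PGCLCs. The direction held in every alternative and with each library left out (1.35 to 1.70), but the difference was not called with libraries centred on their median gene (0.79, adjusted p = 0.0259, under 2-fold) or with voom on reads (1.45, adjusted p = 0.0511). In the same test 6 of 13 gonadal somatic markers and 7 of 10 blood markers were called higher, where 15.5% of all genes were, and 0 and 5 under median centring. Their part in the difference of Rec8 was not tested.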

How the results depend on the processing

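With a replicate block the number of the 7 genes called was 0 for pESCs against ESCs, 1 for pESC-PGCLCs against ESC-PGCLCs, 6 and 7 for ESC-PGCLCs and pESC-PGCLCs against their stem cells, 1 and 0 for PGCs against ESC-PGCLCs and pESC-PGCLCs, 6 for PGCs against stem cells and 1 for the interaction, as without it. Same-numbered libraries deviated from their group means with r from -0.0407 to 0.206 across genes, and the labels give a number no meaning, so the numbers were not taken to pair the libraries. The block moved the calls over all genes from 213 to 78 for pESCs against ESCs.

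Median centring gave 1 called for pESCs against ESCs, 2 for the PGCLC groups, 2 for PGCs against ESC-PGCLCs and 3 for the interaction. Quantile normalization gave 2 for the PGCLC groups and 3 for the interaction, and voom 2 for the interaction. With 1 library left out the count ran from 1 to 2 for the PGCLC groups (2 without pESC-PGCLC replicate 1 or 2) and from 1 to 3 for the interaction (3 without pESC replicate 1, 2 without pESC-PGCLC replicate 1). Rad21l was called in ESC-PGCLCs with a pseudocount of 0.1 (2.30) and with voom (3.54), and lost in pESC-PGCLCs under median centring (0.52).

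Signs turned for small differences that were not called. For pESCs against ESCs, Rec8 became 0.11 (quantile), 0.32 (median centring) and 0.090 (voom), Stag3 0.15 and Rad21l 0.29 (median centring), and with 1 library left out Rad21l ran from -0.091 to 0, Ythdc2 from -0.24 to 0.31, Rec8 from -0.20 to 0.16 and Meioc from -0.25 to 0.33. For PGCs against ESC-PGCLCs, Ythdc2 became -0.35 and Stag3 -0.18 (quantile), Meioc -0.32, Ythdc2 -0.45 and Stag3 -0.32 (median centring), and Stag3 ran from -0.11 without PGC replicate 2 to 0.68 without PGC replicate 1. Rad21l became -0.41 for PGCs against stem cells and -0.068 in the interaction (median centring), and the interaction of Stra8 became -0.23 (quantile), -0.54 (median centring) and -0.17 (voom). The causes were not tested. Of 438 values of members under other settings 405 kept their direction and side of the threshold, and of 560 with a library left out 548 did.

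The scaling shifts all genes. The median difference of all genes moved under median centring from -0.06 to 0.28 for pESCs against ESCs, from 0.12 to -0.29 for the PGCLC groups, from 0.22 to -0.51 for pESC-PGCLCs against pESCs, from 0.27 to -0.34 for PGCs against ESC-PGCLCs and from 0.21 to -0.54 for the interaction. The share of calls that were higher moved with it, from 77.0% to 43.6% for the PGCLC groups (56.4% by quantile normalization), from 75.4% to 31.3% for pESC-PGCLCs, from 86.4% to 26.2% for PGCs against ESC-PGCLCs and from 81.5% to 29.8% for the interaction. Over all genes, calls for pESCs against ESCs were 213, 0 in the compared groups alone and 459 with voom, and those for PGCs against pESC-PGCLCs 1000, 0 and 1956. With 1 library left out the former ran from 2 (without ESC replicate 1) to 962 (without pESC replicate 2), and the latter from 15 (without pESC-PGCLC replicate 2) to 2015 (without PGC replicate 2). Calls for ESC-PGCLCs against ESCs were 8122 and 12295 with voom.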
